A study of Mus musculus with 5 samples.

Results

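Paneth cells of the mouse small intestine were described here from single-cell RNA sequencing of 3 intestinal segments. A barcode was taken as a Paneth cell when at least 300 genes were detected in it, when unique molecular identifiers (UMIs) of genes with a Defa symbol (alpha-defensins, also called cryptdins) and of Lyz1 (the lysozyme of Paneth cells) made up at least 5% of its UMIs, and when it held at most 1 UMI of Ptprc, the pan-leukocyte gene CD45. Of the 16535 barcodes in the deposited matrices, 55 met this rule: 11 in duodenum, 5 in jejunum and 39 in ileum. The cells were thus chosen by their alpha-defensin, Lyz1 and Ptprc UMIs, so alpha-defensin and Lyz1 levels, and all differences between these cells and others of the same libraries, are given as a description with no test.

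The study profiled duodenum, jejunum, ileum, colon and rectum of the mouse, with 1 library for each segment. Its title concerns stromal cells that express Gnai1, an inhibitory G protein subunit, and the formation of goblet and Paneth cells through c-Jun. Live cells negative for propidium iodide were sorted and captured on the 10x Genomics Chromium system, with epithelial, mesenchymal and immune cells named in each sample's labels. The labels state no strain, genotype, age, treatment or number of animals, so the groups are the segments alone, and segment and library cannot be told apart; the spatial libraries of the series were not analysed here.

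Paneth cells sit at the base of the small intestinal crypts, between the Lgr5-positive stem cells. They arise from the secretory lineage that also gives goblet, enteroendocrine and tuft cells, and release granules with alpha-defensins, lysozyme and other antimicrobial proteins into the crypt lumen. They also supply stem cells with signals such as Wnt3, Egf and Notch ligands, and their maturation depends on Wnt signalling and Sox9.

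The promoters of the genes this account turns on are shown to let the defensins of the rule be set beside the other secreted genes. Each line holds the 150 bases before a transcription start, written 5′ to 3′ on the strand of the gene, from RefSeq on GRCm38.p6, and capitals mark matches to TATAAA (the core of a TATA box) or ATCAAAG (a core bound by TCF/LEF factors of the Wnt pathway).
Defa30: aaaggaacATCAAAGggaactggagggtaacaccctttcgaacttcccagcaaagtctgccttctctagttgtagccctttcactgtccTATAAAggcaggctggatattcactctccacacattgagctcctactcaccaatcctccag
Defa22: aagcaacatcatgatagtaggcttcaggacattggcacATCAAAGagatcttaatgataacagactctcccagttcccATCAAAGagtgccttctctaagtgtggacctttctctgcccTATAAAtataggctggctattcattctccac
Mmp7: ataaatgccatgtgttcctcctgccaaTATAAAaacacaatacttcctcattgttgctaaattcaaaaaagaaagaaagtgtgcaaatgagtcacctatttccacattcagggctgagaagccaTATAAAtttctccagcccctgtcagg
Lyz1: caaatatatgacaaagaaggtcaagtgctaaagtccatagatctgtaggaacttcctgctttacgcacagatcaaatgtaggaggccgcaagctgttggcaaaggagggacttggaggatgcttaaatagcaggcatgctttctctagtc
Mptx2: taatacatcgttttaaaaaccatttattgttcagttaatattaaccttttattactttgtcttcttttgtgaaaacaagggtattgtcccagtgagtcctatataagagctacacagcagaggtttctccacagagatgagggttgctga
Itln1: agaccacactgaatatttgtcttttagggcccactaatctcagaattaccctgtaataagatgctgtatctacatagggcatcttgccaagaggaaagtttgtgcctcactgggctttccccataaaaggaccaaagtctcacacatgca
Ang4: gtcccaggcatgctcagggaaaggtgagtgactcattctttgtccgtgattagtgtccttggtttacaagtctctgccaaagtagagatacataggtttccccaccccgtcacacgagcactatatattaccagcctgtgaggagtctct
The windows lie at chr8:21134500-21134649 (plus strand) for Defa30, chr8:21162127-21162276 (plus) for Defa22, chr9:7691940-7692089 (plus, the first of 2 starts) for Mmp7, chr10:117292869-117293018 (minus) for Lyz1, chr1:173277757-173277906 (minus) for Mptx2, chr1:171535295-171535444 (minus) for Itln1 and chr14:51773591-51773740 (minus) for Ang4. The 2 letter patterns do not overlap in these windows and were searched on both strands. Defa22 held 2 ATCAAAG matches, Defa30 held 1, and Mmp7 held 2 TATAAA matches and no ATCAAAG, while the windows of Lyz1, Mptx2, Itln1 and Ang4 held neither. Over the 250 bases before the start, TATAAA was in 15 of 16 Defa promoters (93.8%) against 12.4% of 32851 starts of all genes, and ATCAAAG was in 13 of 16 (81.2%) against 3.21%. Of the 120 pairs of Defa promoters 5, among them Defa21 and Defa22, were identical over all 250 bases. A match is a description of the letters and not a measured binding site, and 13 of the 23 genes of the rule had a start in the table.

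Most of the cells had the markers of their label that the rule did not use, and those with a low share had them in part. Mmp7, the protease that activates pro-cryptdins in mouse, had a UMI in 53 of the 55 cells, Mptx2, a mucosal pentraxin, in 46, and Itln1, a lectin that binds microbial glycans, in 55. In the remaining ileal epithelial barcodes 11.51%, 5.597% and 26.98% had a UMI of these genes (median depth 11457 UMIs, against 41395 in the ileal Paneth cells). Among 4 cells with goblet granule genes, described below, Mmp7 UMIs were 0 to 16 and Mptx2 UMIs 0 or 1. The share of alpha-defensin and Lyz1 UMIs was 5.249% in the lowest, 67.54% in the median and 72.47% in the highest duodenal cell, and 5.176%, 71.3% and 80.6% in ileum. In the 5 jejunal cells it was 5.195%, 70.98%, 71.2%, 75.31% and 78.49%. These UMIs were also found at a low level outside the Paneth cells: pooled over the barcodes with more than 1 Ptprc UMI it was 0.01412% in duodenum, 0.01523% in jejunum and 0.04042% in ileum, and in the remaining epithelial barcodes 0.0185%, 0.03827% and 0.08442%. Just below the 5% limit, the highest barcodes left out held 4.015%, 4.082% and 4.249%, against 5.249%, 5.195% and 5.176% in the lowest ones taken.

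**Figure D1:**
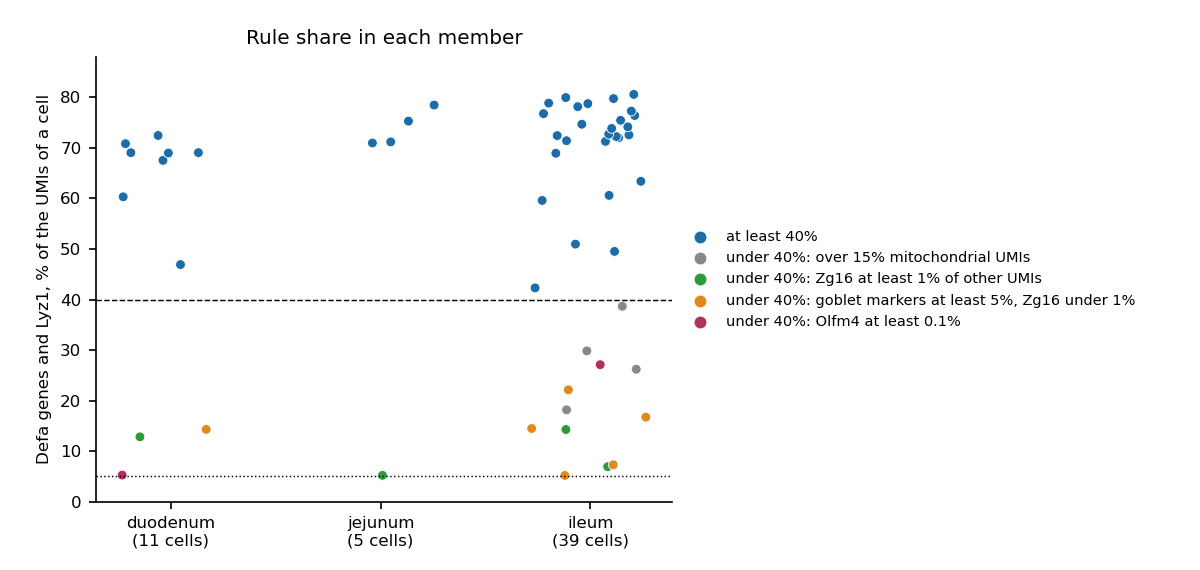
Share of alpha-defensin (Defa) and Lyz1 UMIs in each of the 55 cells (y axis, % of the UMIs of the cell) by segment (x axis, 1 library each); the dotted line is the 5% limit, the dashed line 40%, and colours mark groups of cells below 40%. In all, 39 cells lay at or above 40% and 16 below it.

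Among barcodes with at least 3 UMIs of pan-epithelial markers, Paneth cells were 11 of 1928 in duodenum (0.5705%, exact Clopper-Pearson 95% interval 0.2851 to 1.019), 4 of 1629 in jejunum (0.2455%, 0.06694 to 0.6275) and 37 of 1627 in ileum (2.274%, 1.606 to 3.121). The ileal interval lay above both others, and the duodenal and jejunal intervals overlapped. These and the intervals below cover counting error alone, and the share of each type that survives dissociation and sorting was not measured. The remaining 3 cells, 1 jejunal and 2 ileal, had fewer epithelial-marker UMIs. By the same rule the colon had 0 of 1668 epithelial barcodes, which allows a share of up to 0.1799% at 3 counts of the total (Clopper-Pearson upper bound 0.2209%), and the rectum 0 of 1152, which allows up to 0.2604% (0.3197%).

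The libraries held 41953568 to 65546664 UMIs in all. The Paneth cells had a median of 26236 UMIs in duodenum, 6484 in jejunum and 41395 in ileum, with single cells from 616 to 190235. After Defa genes and Lyz1 were set aside, 199193, 89498 and 1021523 UMIs were left in the 3 libraries. Every level below is the UMIs of a gene per 1000000 of these other UMIs (CPM), summed over the cells of a library, unless stated. Some barcodes were nearly alike: 11 barcodes, 5 in duodenum and 6 in ileum, fell into 4 sets whose profiles differed by little more than sampling noise or, in some pairs, clearly more (chi-square per degree of freedom of 1.054 to 2.703, with no other pair of cells of a library under 3.45). Counting each set once gave 48 profiles, 8 in duodenum, 5 in jejunum and 35 in ileum. The barcodes within a set differed by at least 9 letters, whether a set is 1 cell under several barcodes was not tested, and no Paneth cell barcode occurred in a second library.

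The cells below 40% were of several kinds. Of these 16 cells, 4 ileal ones had 15.46% to 62.56% mitochondrial UMIs. A further 4 carried Zg16, a lectin-like protein of goblet granules, at 1% or more of other UMIs, with goblet markers at 22.61% to 27.3% of other UMIs. In another 6 cells, 1 duodenal and 5 ileal, goblet markers made up 7.725% to 19.2% with little Zg16: these had 54 to 161 Mmp7 UMIs and 110 to 593 Itln1 UMIs, yet 0 or 1 Mptx2 UMI. The last 2 had 257 and 184 UMIs of Olfm4, a marker of crypt base stem cells, together with 145 and 170 Mptx2 UMIs. The balance of the main 2 defensins also differed, although the rule used both. The Defa24 to Defa30 ratio was 0.6662 to 3.642 (median 1.002) in the cells at 40% or above. It was 8.133 to 582.5 (median 13.26) in the 6 cells rich in goblet markers with little Zg16. In the 4 Zg16 cells it was 1.853 to 1411 (median 79.76). It was 0.7736 to 2.065 in the 4 cells rich in mitochondrial UMIs, and 1.082 and 2.338 in the 2 Olfm4 cells. Some cells at 40% or above had such traits too. Their goblet markers, among them Spink4, which Paneth and goblet cells share, made up 1.539% to 17.85% of other UMIs (median 3.221%). The ileal cells at 49.52% and 63.4% had 169 and 237 Olfm4 UMIs, and the ileal cell at 50.96% had 23.07% mitochondrial UMIs. The groups below 40% were drawn after the values were seen. Whether a barcode with markers of another type held more than 1 cell was not tested; Scrublet, a doublet caller, put 3 ileal Paneth cells among the highest scores of their library.

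Goblet markers were present in the cells, and most other cell type markers were low. The 10 goblet markers summed to 65770, 47100 and 84110 CPM in duodenum, jejunum and ileum, between the other epithelial cells (5013, 6453 and 42990) and the goblet cells (203100, 215700 and 196800). Cells below 40% held much of this: 9283 of 13101 goblet marker UMIs in duodenum and 37619 of 85918 in ileum. At a share of 40% or above the sums were 39900, 45890 and 61990. Much of this is Spink4, which is also on the list of secreted Paneth genes used below. Its median over the cells at 40% or above was 24540 CPM. The goblet cells were chosen by Muc2, Fcgbp, Zg16, Clca1 and Tff3, which are among these markers. The 13 enterocyte markers summed to 1044, 1106 and 2951, against 35380, 48710 and 35420 in the other epithelial cells. In 1 ileal cell they made up 5.282% of its 38962 other UMIs, 1628 of them Fabp6, against a median of 0.1035% over ileal cells. The 9 crypt stem markers summed to 2154, 201.1 and 1137 CPM, against 1126, 659.4 and 1516 in other epithelial cells and 6080, 5983 and 7568 in the Olfm4 crypt cells. In duodenum 391 of 429 of these UMIs lay in 1 cell, and the sum without it was 263. T cell markers gave 20.08, 0 and 7.831 CPM, enteroendocrine markers 5.02, 11.17 and 22.52, tuft markers 5.02, 0 and 0, and stromal markers 0, 0 and 0.9789. T cell markers in the Ptprc barcodes were at 2493, 1105 and 1410. Plasma cell markers gave 261.1, 312.9 and 111.6, below the other epithelial cells (3329, 1690 and 2318). They were above goblet cells (70.66, 96.49 and 22.92) and Olfm4 crypt cells (52.64, 215.8 and 21.52).

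Levels in the Paneth cells were compared with 5132 other epithelial barcodes of the same libraries, and a gene was called higher or lower when the ratio passed 4-fold the same way in each of the 3 libraries with at least 50 UMIs in all. Of 13107 genes with enough UMIs, 117 were higher (0.893%) and 219 lower (1.67%). On shares of all UMIs, where the defensins take up most of the total, the split was 49 higher and 1443 lower; with the defensin gene models that lack a Defa symbol also left out, it was 147 and 138. The median gene lay at -0.19, -0.46 and -0.50 (log2) in the 3 libraries on the scale used here, at -1.18, -1.90 and -2.06 on all UMIs, and at 0.09, 0.13 and -0.31 without the gene models. Without the ileum 215 genes were higher, and without the jejunum 332 were lower. With 1 barcode kept of each near-identical set, 110 were higher and 202 lower.

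Of 51 secreted genes listed for Paneth cells, 40 had enough UMIs to be compared; 21 were higher and 5 lower (list median in ileum 3.24 on the log2 scale, against -0.50 over all genes). Of these 21, 6 are alpha-defensin gene models without a Defa symbol, the family that chose the cells. Without them 34 genes were compared, 15 were higher and 5 lower (median 2.43). The other 96 genes called higher are not on this list. The list was written with earlier results of these data known, so these counts are a description. It also holds genes of other kinds, such as Tm4sf5, a membrane protein. Mmp7 stood at 2319 CPM in duodenum (exact Poisson 95% interval 2113 to 2541), 4961 in jejunum (4510 to 5445) and 3286 in ileum (3176 to 3399). The duodenal value depends on the cells of low share: with a limit of 20% Mmp7 was at 4222, 4994 and 3377, so duodenum was then above ileum. The cells ranged widely: Mmp7 UMIs per cell were 2, 27 and 211 (lowest, median, highest) in duodenum, 0, 3, 12, 153 and 276 in jejunum and 0, 92 and 228 in ileum. In other epithelial cells Mmp7 was at 1.938, 3.762 and 71.0 CPM, which put the Paneth cells 1197-, 1319- and 46.28-fold above them. The ileal ratio was the smallest of the 3. Mmp7 in goblet cells was also higher in ileum (262.7 CPM) than in duodenum (45.36) and jejunum (114.9). Each cell was then thinned to 1000 UMIs drawn without Defa genes and Lyz1, and cells with fewer were left out. After this, 35 of 39 ileal Paneth cells had a Mmp7 UMI (89.74%), against 16.36% of ileal goblet cells and 3.907% of other ileal epithelial cells.

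Mptx2 stood at 15760, 53870 and 24470 CPM in duodenum, jejunum and ileum, against 1.578, 2.829 and 3.941 in other epithelial cells. With a limit of 20% it was at 31290, 54220 and 29970, which turned the order of duodenum and ileum. Unlike Mmp7, it was uneven even among deep cells with a high defensin share. Of the 39 cells at 40% or above, 33 had 19 to 3105 Mptx2 UMIs (median 465) and 6, all ileal, had 0 to 3 although they held 9729 to 173597 UMIs. Among the 16 ileal cells with more than 100000 UMIs, 3 had 0 to 3 Mptx2 UMIs and 13 had 177 to 3105. In jejunum the 5 cells had 0, 119, 131, 1847 and 2724 Mptx2 UMIs, with the 0 in the cell of 616 UMIs. After thinning to 1000 other UMIs, 8 of 11 duodenal (72.73%) and 26 of 39 ileal cells (66.67%) had a Mptx2 UMI, and 0.5171% of ileal Ptprc barcodes.

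**Figure D2:**
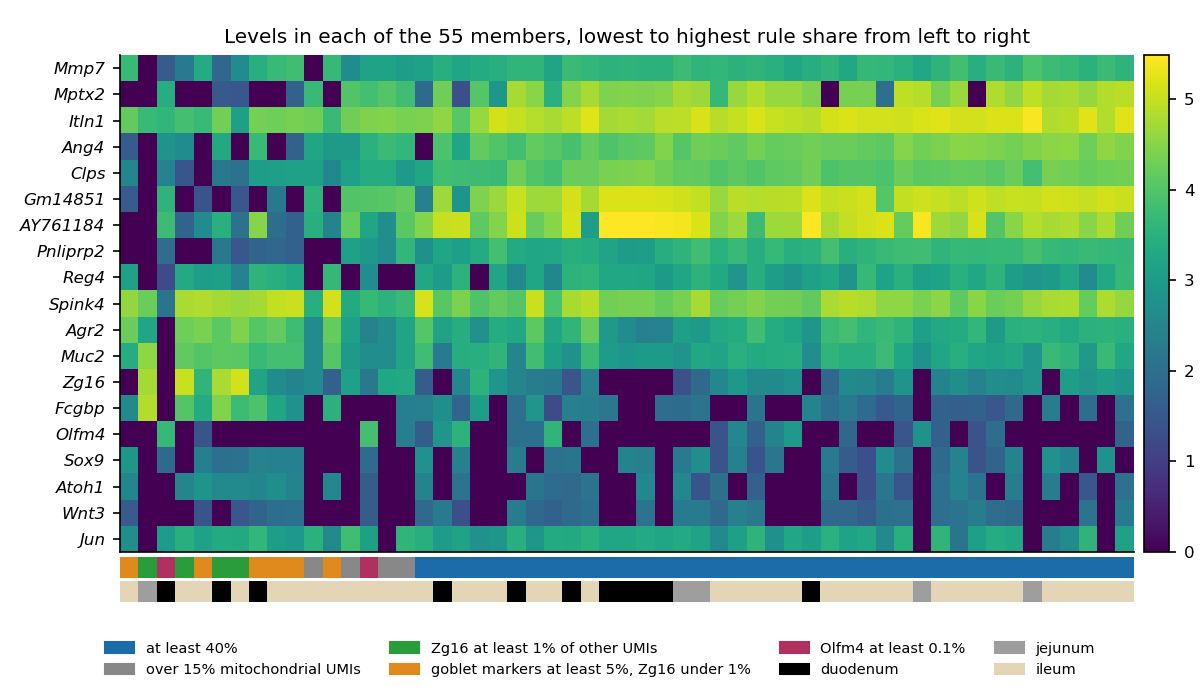
Levels of 19 genes (rows) in the 55 Paneth cells (columns, ordered by alpha-defensin and Lyz1 share), as log10 of CPM (UMIs per 1000000 other UMIs) plus 1; the bars mark the group and library of each cell. Mmp7 and Itln1 run across nearly all columns, and Zg16 reaches 1% of other UMIs in 4 cells below 40%. Mptx2 has 0 to 3 UMIs in 6 ileal cells at 40% or above, which is 0 to 763.4 CPM. In the other cells at 40% or above its lowest level is 2970 CPM.

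Itln1 was at 43690, 115100 and 91860 CPM in Paneth cells and at 24.01, 29.53 and 100.6 in other epithelial cells, with a lowest cell of 207 UMIs in duodenum, 3 in jejunum and 43 in ileum. With a limit of 20% duodenal Itln1 was at 77910, duodenal Ang4 at 12490 and duodenal Clps at 19210, the last then above jejunum (14080) and ileum (11290). Ang4, a microbicidal ribonuclease of the angiogenin family, was at 7008, 15160 and 14360 CPM, 632.1-, 1384- and 557.3-fold above other epithelial cells. Genes of fat digestion better known from the pancreas were also high: Clps, the colipase, at 9433, 13990 and 9301 CPM and Pnliprp2, a pancreatic lipase-related protein, at 1200, 5050 and 2754. The lectin Reg4 (1576, 2469 and 2109), the chemokine Ccl6 (2425, 2994 and 2528), the stress-response protein Nupr1 (923.7, 1028 and 2611), the serine protease Habp2 (85.34, 245.8 and 208.5), the matrix protein Thbs1 (823.3, 838 and 459.1), the phospholipase Pla2g2f (50.2, 33.52 and 87.12) and the receptor-like protein Fgfrl1 (20.08, 100.6 and 48.95) were higher too. Samd5 (75.3, 178.8 and 191.9) and Smim38 (5.02, 33.52 and 60.69), which are on none of the lists, were among the 15 genes with the highest ratio. Spink4, a serine protease inhibitor shared with goblet cells, was at 30030, 39190 and 50700. As shares of all UMIs, 16 of the 21 secreted genes still passed 4-fold in each library, and Spink4, Ccl6, Thbs1, Fgfrl1 and Lyz2 did not.

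Not every antimicrobial gene followed. The C-type lectins Reg3b and Reg3a were lower than in other epithelial cells in each library: Reg3b had 0, 1 and 23 UMIs (0, 11.17 and 22.52 CPM, against 63.41, 405.4 and 1075). In duodenum the Reg3b call rests on 0 UMIs set to 3 counts (15.1 CPM). It was lost when the defensin gene models were also left out of the total. Reg3g was at 135.5, 257 and 51.88 CPM, against 93.68, 355.3 and 1030, and passed 4-fold in ileum alone; 21 of its 27 duodenal and 19 of its 23 jejunal UMIs lay in 1 cell each. Pla2g2a had 0 UMIs in these cells. Mptx1, a relative of Mptx2, had 110, 0 and 944 UMIs. Even on shares of all UMIs Mptx1 was 9.642-fold above other epithelial cells in duodenum and 6.77-fold in ileum. Lyz2, the lysozyme of macrophages and a close copy of Lyz1, had 6, 2 and 31 UMIs, and reads from the 2 genes may be assigned to either. It stood at 30.12, 22.35 and 30.35 CPM, below the Ptprc barcodes (545.7, 1006 and 965.4). Lyz2 was nevertheless among the 21 secreted genes called higher than in other epithelial cells.

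The mix of alpha-defensins differed between the libraries, given as shares of the Defa UMIs with no adjustment for gene length. Pooled over cells, Defa24 took 51.64% in duodenum, 49.13% in jejunum and 36.16% in ileum, and Defa30 34.23%, 34.5% and 36.98%. Defa22 took 1.786%, 1.614% and 9.134%, Defa21 0.5968%, 1.376% and 8.183%, and Defa29 7.744%, 4.445% and 2.481%. In duodenum 2 barcodes of 1 near-identical set held 1824 and 1677 of the 3549 Defa22 UMIs. They also held 535 and 482 of the 1186 Defa21 UMIs. Of 22 Defa genes, 18, 19 and 21 had a UMI in the 3 libraries.

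By cell, at a share of 40% or above, the segments overlapped for most of these genes. The 8 duodenal cells counted here include the 5 barcodes of the near-identical duodenal sets, and the 27 ileal cells the 6 ileal ones. Defa22 was 0.0144%, 0.0493% and 7.15% of Defa UMIs (lowest, median, highest) in the 8 duodenal cells and 0.0606%, 8.96% and 14.0% in the 27 ileal cells. Defa29 ran the other way, at 6.49%, 8.75% and 10.8% in duodenum and 0.891%, 1.87% and 7.34% in ileum. Defa34 separated duodenum from ileum, at 0%, 0.00334% and 0.0752% against 0.323%, 0.848% and 2.70%, while the jejunal cells (0.0535% to 1.35%) overlapped both. Alpha-defensins are a multigene family with close copies, so the split of reads among them is uncertain, and the rule used these UMIs. Gene models without a Defa symbol that RefSeq names as defensins (Gm14851 as Defa38, Gm15292 as Defa40, Gm15293 as Defa41, Gm7849 as Defa42 and Gm7861 as Defa43), with AY761184, took 17.91%, 35.55% and 12.51% of the other UMIs. AY761184 alone was at 102300, 198600 and 41370 CPM.

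**Figure D3:**
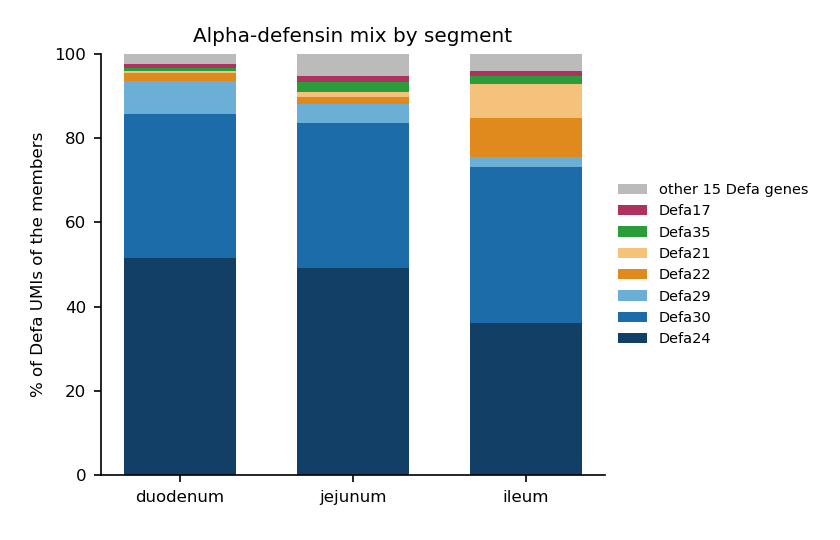
Share of each alpha-defensin gene in the Defa UMIs of Paneth cells (stacked, %) by library. Defa24 takes 51.64% of the duodenal and 36.16% of the ileal bar, and Defa22 takes 9.134% of the ileal bar.

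The genes lower in Paneth cells were led by those of nutrient uptake. Of 13 enterocyte markers 12 were lower (list median in ileum -3.94 on the log2 scale). Fabp1, a fatty acid carrier of enterocytes, had 21, 19 and 1 UMIs (105.4, 212.3 and 0.9789 CPM against 8737, 7437 and 94.89). The 10 genes of lowest ratio were Lct (lactase), Fabp1, Spink1 (a trypsin inhibitor), Gsta1 (a glutathione transferase), Apoc3, Apoa1 and Apoa4 (apolipoproteins), Rbp2 (a retinol carrier), Arg2 (arginase) and Mme (a brush border peptidase). Spink1 was at 15.06, 44.69 and 30.35 CPM against 629.1, 2233 and 1003. The other epithelial class includes the enterocytes, and Fabp1 differs between segments there as well.

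Among 28 transcription factors of secretory fate, 3 were higher than in other epithelial cells and 0 lower. Bhlha15 (Mist1), which builds up the secretory machinery of gland cells, had 9, 9 and 96 UMIs: 45.18 CPM in duodenum (20.66 to 85.77), 100.6 in jejunum (45.98 to 190.9) and 93.98 in ileum (76.12 to 114.8). That was 46.15-, 151.9- and 42.27-fold above other epithelial cells, and it was also higher than in goblet cells (7.4-, 9.275- and 14.76-fold). Without its highest cell the duodenal level was 24.77 and the jejunal level 46.6. Klf15 had 3, 3 and 24 UMIs. Nr4a1, an immediate-early nuclear receptor that is also on the list of dissociation genes, was at 271.1, 245.8 and 141.9 CPM, with 17 of the 22 jejunal UMIs in 1 cell. Bhlha15 still passed 4-fold in each library on shares of all UMIs, and Klf15 and Nr4a1 did not.

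Atoh1, the factor that opens the secretory lineage, was at 125.5, 201.1 and 161.5 CPM, against 166.6, 173.5 and 255.7 in goblet cells, and 24.73-, 32.44- and 2.673-fold above other epithelial cells. Few cells carried much of it: 17 of 18 jejunal UMIs lay in 1 cell (23.3 CPM without it), and at a share of 40% or above Atoh1 was at 62.7 in duodenum and 93.7 in ileum. Sox9, which Paneth cells require, was at 115.5, 324 and 139 CPM, against 43.03, 22.51 and 58.64 in other epithelial cells and 165.9, 138.8 and 161.5 in Olfm4 crypt cells; without 1 jejunal cell, which held 20 of the 29 UMIs, it was at 179.5 there. Spdef, a factor of goblet and Paneth maturation, was at 70.28, 78.21 and 94.96 and Gfi1, which acts downstream of Atoh1, had 1, 1 and 16 UMIs; neither passed 4-fold in ileum. Xbp1, the unfolded protein response factor, was within 2-fold of other epithelial cells in each library (ratios 1.604, 1.785 and 1.521). On shares of all UMIs the ileal ratios of Atoh1 (0.8832), Sox9 (0.7833), Spdef (0.7127) and Xbp1 (0.5027) turned below 1. The remaining factors with at least 10 UMIs, among them Creb3l1, Creb3l4, Foxa1, Foxa2, Foxa3, Klf4, Hes1, Tcf7l2, Cebpb, Ets2, Elf3, Cdx1, Cdx2, Hnf4a and Hnf4g, had ileal ratios from 0.1855 (Hnf4g) to 3.31 (Creb3l4).

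Wnt3, the Wnt ligand that Paneth cells give to stem cells, was the niche ligand higher in each library, out of 12 compared. It had 8, 16 and 79 UMIs: 40.16 CPM in duodenum (17.34 to 79.14), 178.8 in jejunum (102.2 to 290.3) and 77.34 in ileum (61.23 to 96.38). Other epithelial cells were at 0.5993, 0.5117 and 4.143, and Wnt3 also passed 4-fold in each library on shares of all UMIs (32.58, 100.7 and 6.168). A total of 33 of the 55 Paneth cells had a Wnt3 UMI. All 16 jejunal UMIs came from 2 deep cells, with 9 and 7, and with a limit of 20% the duodenal level was 73.15. The other signals of the niche were sparse: Egf had 0, 1 and 10 UMIs, Tgfa 1, 1 and 13, and the Notch ligand Dll4 4, 1 and 12. Dll1, a Notch ligand, was at 35.14, 22.35 and 28.39 CPM, below goblet cells (142.2, 135.5 and 101.1). Of the 7 duodenal UMIs, 6 lay in 1 cell, and the 2 ileal cells with Zg16 at 1% or more held 9 and 5. The growth factors Areg (50.2, 279.3 and 18.6) and Hbegf (306.2, 0 and 51.88) had no common order between segments, 24 of the 25 jejunal Areg UMIs lay in 1 cell, and Bst1, an ectoenzyme of the niche, was lower with 5 UMIs in all.

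Of 20 Wnt receptors and targets compared, Ephb3, the receptor that holds Paneth cells at the crypt base, was higher (30.12, 67.04 and 39.16 CPM), as was Nkd1, a feedback inhibitor, with 2, 3 and 10 UMIs, and 0 were lower. Nkd1 still passed 4-fold on shares of all UMIs and Ephb3 did not. Kit, the receptor of deep crypt secretory cells, was at 15.06, 44.69 and 76.36 and passed 4-fold against Olfm4 crypt cells but not against other epithelial cells in ileum (3.784-fold). Of 7 Notch receptors and targets 0 passed 4-fold in either direction in all 3 libraries.

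Jun, the factor named in the title of the study, was at 1973 CPM in duodenum (1783 to 2178), 1832 in jejunum (1563 to 2135) and 1865 in ileum (1782 to 1951). Other epithelial cells were at 1099, 979.3 and 883.8, so the ratio was 1.795, 1.871 and 2.11, and it did not reach 4-fold in any library. Jun UMIs per cell were 6, 20 and 82 (lowest, median, highest) in duodenum, 0, 0, 0, 58 and 106 in jejunum, and 0, 36 and 151 in ileum. With cells thinned to 1000 UMIs a Jun UMI was in 90.91%, 50% and 58.97% of Paneth cells. Among other epithelial cells the shares were 58.26%, 56.42% and 41.59%. The jejunal 50% was 2 of 4 Paneth cells (exact Clopper-Pearson interval 6.759 to 93.24). That interval spans the share in other epithelial cells, so whether jejunum followed the summed level cannot be told. On shares of all UMIs the Paneth cells had 959.2, 527.9 and 615.7 Jun CPM, below the other epithelial cells in each library, which makes the direction depend on the scale.

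Other AP-1 genes lay on either side of the other epithelial level. Fos was 2.074-, 2.004- and 2.071-fold, Fosb 2.646-, 3.417- and 2.791-fold, Atf3 1.459-, 1.546- and 2.583-fold and Jund 1.507-, 2.277- and 1.576-fold the other epithelial level. On shares of all UMIs these ratios were below 1 in ileum (Fos 0.6844, Fosb 0.9221, Atf3 0.8534 and Jund 0.5207). Fosl2 (ratios 0.7956, 0.569 and 0.4027) lay below it in each library. Junb (0.8253, 0.4144 and 1.175) lay below it in duodenum and jejunum and above it in ileum. Maff (1.096, 0.2622 and 0.8003) and Mafk (1.023, 0.45 and 0.6487) lay slightly above it in duodenum and below it elsewhere. Of 12 genes of the family compared, 0 were higher and Maf, with 2, 0 and 14 UMIs, was lower. Jun, Fos and Atf3 are also induced by tissue dissociation; of 14 dissociation genes 1, Nr4a1, was higher (list median in ileum -0.65), and the part of dissociation in these levels was not tested. Among 11 genes of the Jun kinase pathway 0 passed 4-fold the same way in all 3 libraries. Gnai1, the G protein subunit of the title, had 0, 0 and 1 UMI in Paneth cells, Gnai2 was at 85.34, 55.87 and 82.23 CPM, and of 9 G alpha genes compared Gna11 was lower (55.22, 44.69 and 78.31).

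**Figure D4:**
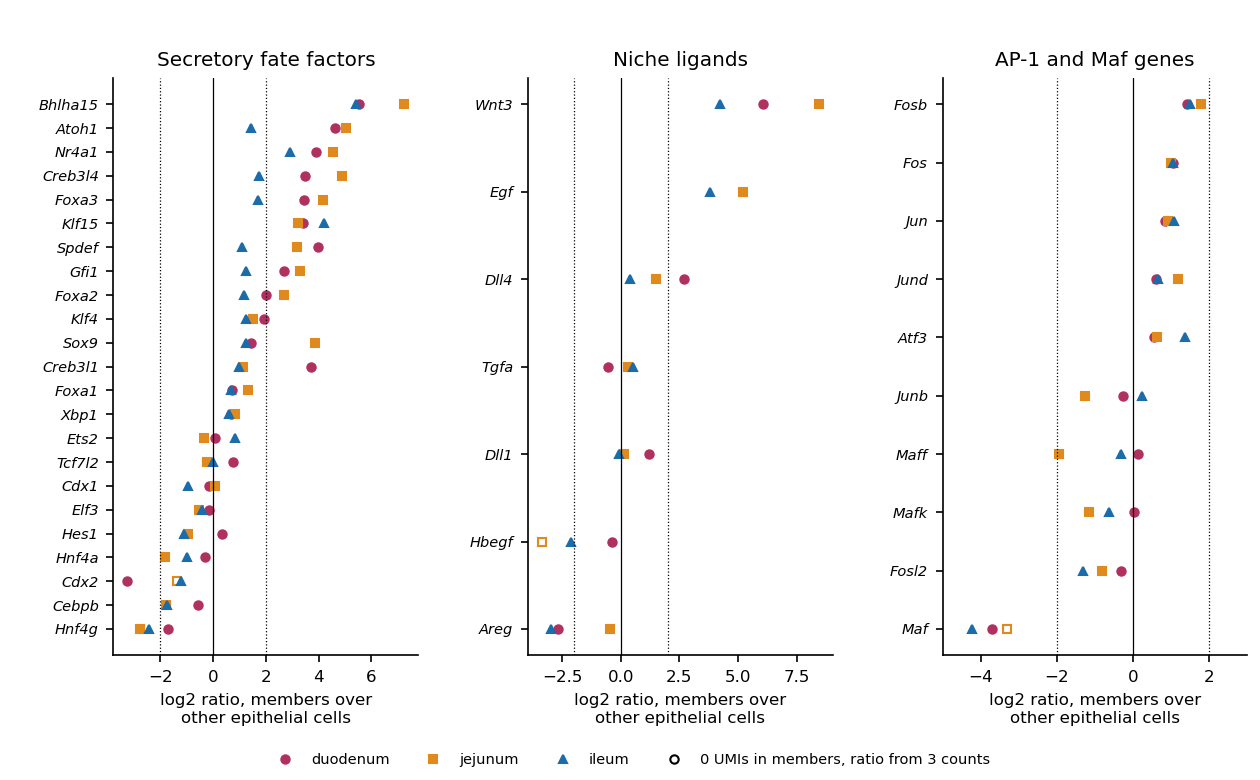
Ratio of Paneth cells to other epithelial cells (log2, x axis) for secretory fate factors, niche ligands and AP-1 genes, with 1 point for each library; dotted lines mark 4-fold. Bhlha15 and Wnt3 lie right of the line in the 3 libraries, and Jun and Fos lie near a log2 ratio of 1.

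Of 54 genes of protein folding and secretion compared, 2 were higher and 0 lower (list median in ileum 0.66). These were Tmed6, a cargo receptor of early secretory transport (165.7, 491.6 and 343.6 CPM), and Fkbp11, a folding enzyme of the endoplasmic reticulum (150.6, 167.6 and 243.8). The chaperone Hspa5 had ratios of 1.19, 0.945 and 1.09. Of 28 genes of granules, autophagy and inherited bowel disease 4 were higher: Slc30a2, a zinc transporter of secretory granules (90.36, 245.8 and 153.7), Rab3d, a granule GTPase (100.4, 189.9 and 140), Copz2, a coatomer subunit (30.12, 33.52 and 101.8), and the secreted ribonuclease Rnase1 (913.7, 782.1 and 364.2). Tmed6, Copz2 and Rnase1 still passed 4-fold in each library on shares of all UMIs, and Fkbp11, Slc30a2 and Rab3d did not. Of 14 class II and interferon genes 0 passed 4-fold the same way in all 3 libraries.

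Against 319 goblet cells of the same libraries, 40 of 8998 genes were higher (0.445%) and 25 lower (0.278%). On shares of all UMIs the split was 20 and 741, and without the defensin gene models 45 and 13. Of the 35 secreted genes compared 17 were higher, Mmp7 by 51.13-, 43.17- and 12.51-fold, and Tm4sf5, a membrane protein, was lower. Spink4 (1.5-, 1.208- and 2.126-fold) and Ccl6 (1.617-, 1.524- and 2.605-fold) differed from goblet cells by less than 4-fold. Retnlb, an antibacterial protein of goblet cells, was at 4192, 5341 and 6633 CPM in Paneth cells. Of 9 goblet markers Clca1, Fcgbp and Zg16 were lower. Muc2, the goblet mucin, was at 2721, 1475 and 4158 against 8814, 11850 and 10620. Without 1 duodenal cell, which held 381 of the 542 Muc2 UMIs there, the level was 953.3. The goblet cells were themselves chosen by their summed Muc2, Fcgbp, Zg16, Clca1 and Tff3 UMIs. Lower levels of these genes in Paneth cells thus follow in part from that choice. Wnt3, Ephb3, Bhlha15, Nr4a1, Tmed6, Slc30a2 and Rnase1 were higher here too. With Paneth cells at a share of 40% or above, 48 genes were lower.

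Against 484 Olfm4 crypt cells, the neighbours of Paneth cells at the crypt base, 133 of 10530 genes were higher (1.26%) and 32 lower (0.304%); on shares of all UMIs the split was 53 and 1586, and without the defensin gene models 170 and 6. Here 23 of 36 secreted genes were higher, along with the factors Creb3l4, Klf4, Bhlha15, Atoh1 and Nr4a1. Of 52 folding and secretion genes 8 were higher: Edem1, Herpud1, Tmed6, Tmed3, Selenom, Dnajb9, Kdelr3 and Fkbp11. Of 26 granule and autophagy genes 6 were higher: Slc30a2, Rab3d, Rab27a, Copz2, Rnase1 and Syt7. The cell division genes Ube2c, Mki67 and Birc5 were lower. With Paneth cells at 40% or above, 151 genes were lower.

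Few genes set the ileal Paneth cells apart from the others by more than 4-fold on both sides. Of 2568 genes with at least 50 UMIs in Paneth cells, 4 were above duodenum and jejunum (0.156%) and 2 below (0.0779%). Fabp6, the ileal bile acid carrier, had 0 UMIs in duodenum and jejunum; in ileum 1628 UMIs lay in 1 cell, the next cell had 21, and the level without that cell was 289 CPM. AY761185, a cryptdin-related gene, had 0, 1 and 328 UMIs. Neurl3, a ubiquitin ligase, had 6, 1 and 142 UMIs and Rasd1, a small GTPase, 3, 1 and 70. Rbp2 was lower in ileum (160.6, 178.8 and 11.75 CPM), with a gap of 13.68-fold, against 20.37-fold in the other epithelial cells. Cdkn1a, the cell cycle inhibitor p21, had 127, 73 and 91 UMIs, of which 74 lay in 1 duodenal cell and 71 in 1 jejunal cell. Few duodenal and jejunal cells stand behind these counts. With a share of 20% or more 22 genes were above, and with 1 barcode kept of each near-identical set 7 were.

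Within the ileum, the defensin and Lyz1 share of the 39 cells was compared with the levels of other genes. Of 2707 genes compared, the highest Spearman correlations, on levels without Defa genes and Lyz1, were with Gm15293 (0.931), Ang4 (0.927), Clps (0.925), Gm14851 (0.921), Gm7861 (0.896), Gm15292 (0.889), Gm7849 (0.881), Itln1 (0.803), Pnliprp2 (0.797) and Pglyrp1 (0.778), a peptidoglycan receptor. The 5 Gm genes here are alpha-defensin models, of the same family as the share itself. Next after these 10 came Fth1, a ferritin chain, at 0.762 and Tmed6 at 0.738. The median over genes was -0.0974 and the lowest was Malat1, a nuclear RNA, at -0.665. The cells share a library, and the same share correlated with total UMIs at 0.502 and with the mitochondrial share at -0.816, so these values describe the cells and carry no test.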

How the data were processed

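Gene by barcode matrices of 5 libraries were used. Per the submitters' processing notes the authors used Cell Ranger 4.0.0, Seurat and build mm10; the header of the deposited matrices names Cell Ranger 7.2.0. The values are UMI counts as deposited by the authors, with no normalization, per the file headers and the whole numbers in them; the aligner's other settings are not given in the sources used here. The deposited matrices list 32285 genes.

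The Paneth cells, gene lists and limits of the reference classes were chosen with earlier results of these data known. Epithelial barcodes held at least 3 UMIs of pan-epithelial markers and at most 1 Ptprc UMI. Goblet cells had Muc2, Fcgbp, Zg16, Clca1 and Tff3 summed to 2% or more of other UMIs. Crypt cells had Olfm4 at 0.1% or more of other UMIs. UMIs were summed per library and class. With 1 library per segment no test was run. A gene was called at 4-fold in each of the 3 libraries with at least 50 UMIs, and a count of 0 was set to 3. Levels have exact Poisson and shares exact Clopper-Pearson intervals (95%). Named were the 5 markers, listed genes with at least 10 UMIs in Paneth cells (by value, range or count), genes of other lists past 4-fold, the 15 highest and 10 lowest ratios and the widest segment gaps, without mitochondrial, immunoglobulin, T cell receptor and unnamed genes; genes outside this rule were chosen after their values were seen. Doublets were not removed; Scrublet in scanpy 1.11.5 was an alternative. Python 3.11.15, numpy 2.4.6, pandas 2.3.3, scipy 1.17.1 and matplotlib 3.10.9 were used, and the ratio calls were tested on simulated data. Alternatives changed the share limit, mitochondrial, gene, UMI and doublet limits, the scale and the libraries. A limit of 40%, 1 barcode per near-identical set and the total without defensin gene models were added after seeing the data.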

Additional observations from a re-analysis of the deposited data

Results flagged for a closer look

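Clca1 and Zg16 went opposite ways between segments in Paneth cells against other epithelial cells, and the difference was not tested. Clca1, a secreted goblet protein, had a ratio of 5.68 in duodenum and 0.145 in ileum. Zg16 had a ratio of 5.05 in duodenum and 0.19 in jejunum. In duodenum 172 of 176 Clca1 UMIs and 1911 of 1945 Zg16 UMIs lay in 1 barcode, and without it the levels were 23.68 and 201.3 CPM. The duodenal rise of both genes thus rests on that barcode.

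Lyz1 UMIs were also found in the large intestine, where no barcode met the rule and Defa genes had 0 UMIs. Barcodes with more than 1 Ptprc UMI held 147 Lyz1 UMIs in colon and 158 in rectum, next to 12394 and 21350 UMIs of Lyz2, the near copy of macrophages. In rectum the other epithelial barcodes held 94 Lyz1 UMIs in 18 barcodes.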

How the results depend on the processing

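The number of Paneth cells in all stayed within 1.5 times of 55 (44 to 82), while that in jejunum went from 5 to 13 at a limit of 2% and to 2 with at least 1000 genes, and the ileal share stayed 1.429 to 2.243 percentage points above the higher of the other segments, against 1.704. Against other epithelial cells the count of higher genes went from 117 to 49 on shares of all UMIs and 319 at 2-fold, and that of lower genes from 219 to 1443 and 808, to 120 with a share limit of 2% and to 138 without the defensin gene models; leaving out 1 library gave 127 to 215 higher and 288 to 332 lower. With a limit of 40%, 48 genes were lower than in goblet and 151 than in crypt cells (25 and 32 at 5%). The genes above in ileum went from 4 to 9, 12, 22 and 17 at limits of 2%, 10%, 20% and 40%, to 77 at 2-fold and to 7 with 1 barcode per set; those below went from 2 to 11 at 2%, 1 at 40%, 9 at 2-fold, 5 with at least 20 UMIs, 68 with no minimum, and 1 without genes with as large a gap in other epithelial cells. Of 21 levels (Mmp7, Mptx2, Itln1, Ang4, Clps, Wnt3 and Jun by library), 20 moved on shares of all UMIs, 13 as a mean over cells, 10 at a limit of 10% and 9 at 20%. The cause was not tested. At the depth of these cells 3 counts are 15.1, 33.5 and 2.94 CPM in duodenum, jejunum and ileum, so a gene at 0 needs 60.2, 134 and 11.7 CPM elsewhere to be called 4-fold lower. No paired analysis was possible because each segment has 1 library.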
